A study of Mus musculus with 8 samples.

Results

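The heterogeneous nuclear ribonucleoproteins (hnRNPs) and the splicing factors studied with them were represented by 37 genes, 35 of which had at least 1 probe set of their own on the arrays, out of 18193 named genes in all. Members were the genes of a list of hnRNPs, their relatives Syncrip, Matr3, Pcbp1, Pcbp2, Ptbp1, Ptbp2, Raly, Tardbp and Ewsr1, and serine- and arginine-rich (SR) proteins, and a probe set counted as a member where the platform annotation named 1 of these genes and no other. Together they had 116 probe sets of 45037. The list was chosen by the measured RA minus control differences, in which several hnRNP genes had stood out, so every count of differences among its members is a description and carries no test of the list.

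The arrays held hippocampal RNA of male 3 × Tg-AD mice at 10 months of age, 4 from control mice and 4 from RA mice. The control mice ate a purified diet and the RA mice the same diet with 0.5% rosmarinic acid (RA), a plant polyphenol, for 8 months. Mice of both groups carried the same 3 alleles, amyloid precursor protein with the Swe mutation, tau with P301L and presenilin 1 with M146V, and no mice without these alleles were compared. According to the Methods 4 animals of mean weight were profiled per group, but pooling of RNA is mentioned as well. Whether each array is 1 mouse is therefore not settled, and the standard errors and p-values measure only the spread between these arrays.

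hnRNPs coat nascent transcripts in the nucleus and act on splicing, export, localisation and stability of mRNA. SR proteins bind exonic enhancers and recruit the spliceosome, and hnRNPs often act against them at the same exons, so that the balance between both families sets which exons are kept. Neurons use alternative splicing widely, tau pre-mRNA is among its best known targets, and Tardbp, Matr3 and several hnRNPs are linked to degenerative diseases of motor neurons and cortex. Many genes of both families also make several transcripts themselves, which matters for an array because each probe set reads only a short stretch near an end of a transcript.

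Of the members, 6 genes had a probe set called lower in the RA group, namely Hnrnpdl, Matr3, Hnrnpr, Hnrnph1, Hnrnpk and Srsf6. The calls are those of the rank product, the test named in the Methods. They covered 7 of the 116 probe sets (6.03%), against 0.562% of all probe sets, and the contrast chose the members. A second test, limma, called none of them after adjustment. The log2 differences of these 7 probe sets ran from -0.76 to -0.17. A second probe set of Hnrnpr was called in the opposite direction. For 23 of the 35 genes no probe set varied between the arrays, and nothing can be said of them.

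The promoter sequences of 5 of the 6 lower genes, the 250 bases before the start from RefSeq on GRCm38.p6, are shown because these genes were called lower together. They are those of the 6 with an entry in the table used. Of the 37 genes, 34 had such an entry, with 45 start sites in all. Capitals mark GGGCGG, the core of a GC box, and CCAAT, the CCAAT box, each also as its reverse complement.
Hnrnpdl promoter (chr5:100039223-100039472, minus strand): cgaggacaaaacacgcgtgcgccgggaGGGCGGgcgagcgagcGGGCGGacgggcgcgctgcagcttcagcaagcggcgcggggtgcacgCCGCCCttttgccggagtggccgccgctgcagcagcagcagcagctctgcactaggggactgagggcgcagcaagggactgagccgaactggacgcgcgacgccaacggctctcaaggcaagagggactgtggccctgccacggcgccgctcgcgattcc
Hnrnpr promoter (chr4:136310692-136310941, plus strand): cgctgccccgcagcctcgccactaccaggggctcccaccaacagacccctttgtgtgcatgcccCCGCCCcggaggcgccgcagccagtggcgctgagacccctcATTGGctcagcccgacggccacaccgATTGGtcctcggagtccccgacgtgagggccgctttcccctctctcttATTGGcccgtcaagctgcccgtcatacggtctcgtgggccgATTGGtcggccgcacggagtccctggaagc
Hnrnph1 promoter (chr11:50376740-50376989, plus strand): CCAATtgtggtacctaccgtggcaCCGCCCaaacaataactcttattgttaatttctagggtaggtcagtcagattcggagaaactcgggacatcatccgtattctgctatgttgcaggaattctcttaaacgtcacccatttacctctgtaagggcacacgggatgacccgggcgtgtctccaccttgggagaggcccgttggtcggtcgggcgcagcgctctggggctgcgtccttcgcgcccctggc
Hnrnpk promoter (chr13:58402118-58402367, minus strand): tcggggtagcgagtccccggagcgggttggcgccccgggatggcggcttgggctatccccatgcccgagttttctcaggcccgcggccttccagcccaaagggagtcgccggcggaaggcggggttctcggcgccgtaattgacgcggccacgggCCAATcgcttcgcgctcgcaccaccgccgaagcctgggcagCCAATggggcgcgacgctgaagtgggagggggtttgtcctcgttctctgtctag
Srsf6 promoter (chr2:162931258-162931507, plus strand): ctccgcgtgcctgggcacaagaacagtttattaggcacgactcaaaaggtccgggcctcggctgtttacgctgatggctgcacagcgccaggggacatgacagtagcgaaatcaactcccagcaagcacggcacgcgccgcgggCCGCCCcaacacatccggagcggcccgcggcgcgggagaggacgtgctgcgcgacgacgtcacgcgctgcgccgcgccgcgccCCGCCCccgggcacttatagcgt

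Hnrnpdl had 3 matches to GGGCGG in this window and none to CCAAT, Hnrnpr had 1 and 4, Hnrnph1 had 1 and 1, Hnrnpk had 0 and 2, and Srsf6 had 2 and 0. Hnrnpr has 2 starts in the table and Hnrnph1 has 5, of which the most upstream one is shown. GGGCGG was in every window shown but that of Hnrnpk, and CCAAT was in those of Hnrnpr, Hnrnph1 and Hnrnpk. Over the windows of all members, GGGCGG was found in 75.6% of 45, against 32.7% of 32851 windows of the same length in the table, and CCAAT in 46.7% against 33.8%. The letters CCGGAAGT, an ETS factor motif, were found in 11.1% against 2.88%, CACGTG, an E-box, in 11.1% against 6.02%, and TATAAA in 6.67% against 12.4%. The AP-1 motif TGAGTCA was found in 2.22% of the member windows against 4.46%, and the CRE TGACGTCA in 0% against 1.55%. The member windows were rich in G and C, with a median of 68% against 52.4% over the table, and these letter counts were not corrected for it. All motifs were read on both strands and each was counted on its own, overlaps included, and a match describes letters and not a binding site.

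The deposited values are log2 summaries by FARMS, a factor analysis of the probes of a probe set, which draws a probe set without shared signal to a nearly constant value. A probe set is called varying here where its SD over the 8 arrays was above 0.01, and unmeasured otherwise. Of the 116 member probe sets, 15 (12.9%) varied, in 12 genes, against 8.34% of all probe sets. The limit fell in a wide gap, with an SD of 0.0253 in the varying member nearest to it, an Srsf2 probe set, and of 0.00319 in the unmeasured one nearest to it. The other 101 probe sets differed between the groups by -0.0033 to 0.00035 on the log2 scale at mean log2 values of 5.09 to 10.9. These figures come from the summary and are no evidence that the transcripts were equal. The genes without any varying probe set were Ewsr1, Hnrnpa0, Hnrnpa1, Hnrnpa2b1, Hnrnpab, Hnrnpd, Hnrnpf, Hnrnph2, Hnrnph3, Hnrnpl, Hnrnpll, Hnrnpm, Hnrnpul1, Hnrnpul2, Pcbp1, Pcbp2, Ptbp1, Ptbp2, Srsf1, Srsf11, Srsf3, Syncrip and Tardbp. Among them were Tardbp with 5 probe sets, Syncrip with 5, Hnrnpab with 7 and Srsf1 with 7. Hnrnpa3 and Srsf7 had no probe set naming them alone. The 4 probe sets naming Hnrnpa3 with other genes, and 3 naming Hnrnpa1 in that way, were left out, and none of these 7 varied.

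Calls were made by the rank product, the test named in the Methods, which ranks the differences between every RA and every control array over all probe sets and calls those with an estimated proportion of false positives under 0.05. Of the member probe sets, 7 were called lower (6.03% of 116) and 1 higher (0.862%), where 0.562% and 0.924% of all probe sets were called lower and higher. The contrast chose the members, and the comparison of these shares is no finding. limma, whose error for a probe set follows that probe set's own spread, called none of them after Benjamini-Hochberg adjustment over the whole table, and 0% of all probe sets. For the 7 lower calls its adjusted p ran from 0.339 to 0.506. At an unadjusted limma p under 0.05, 18 member probe sets were lower and 5 higher, against 5.22% and 4.89% of all, and of the 15 that varied 7 were lower and 0 higher, against 4.36% and 5.3% of all varying probe sets.

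**Figure D1:**
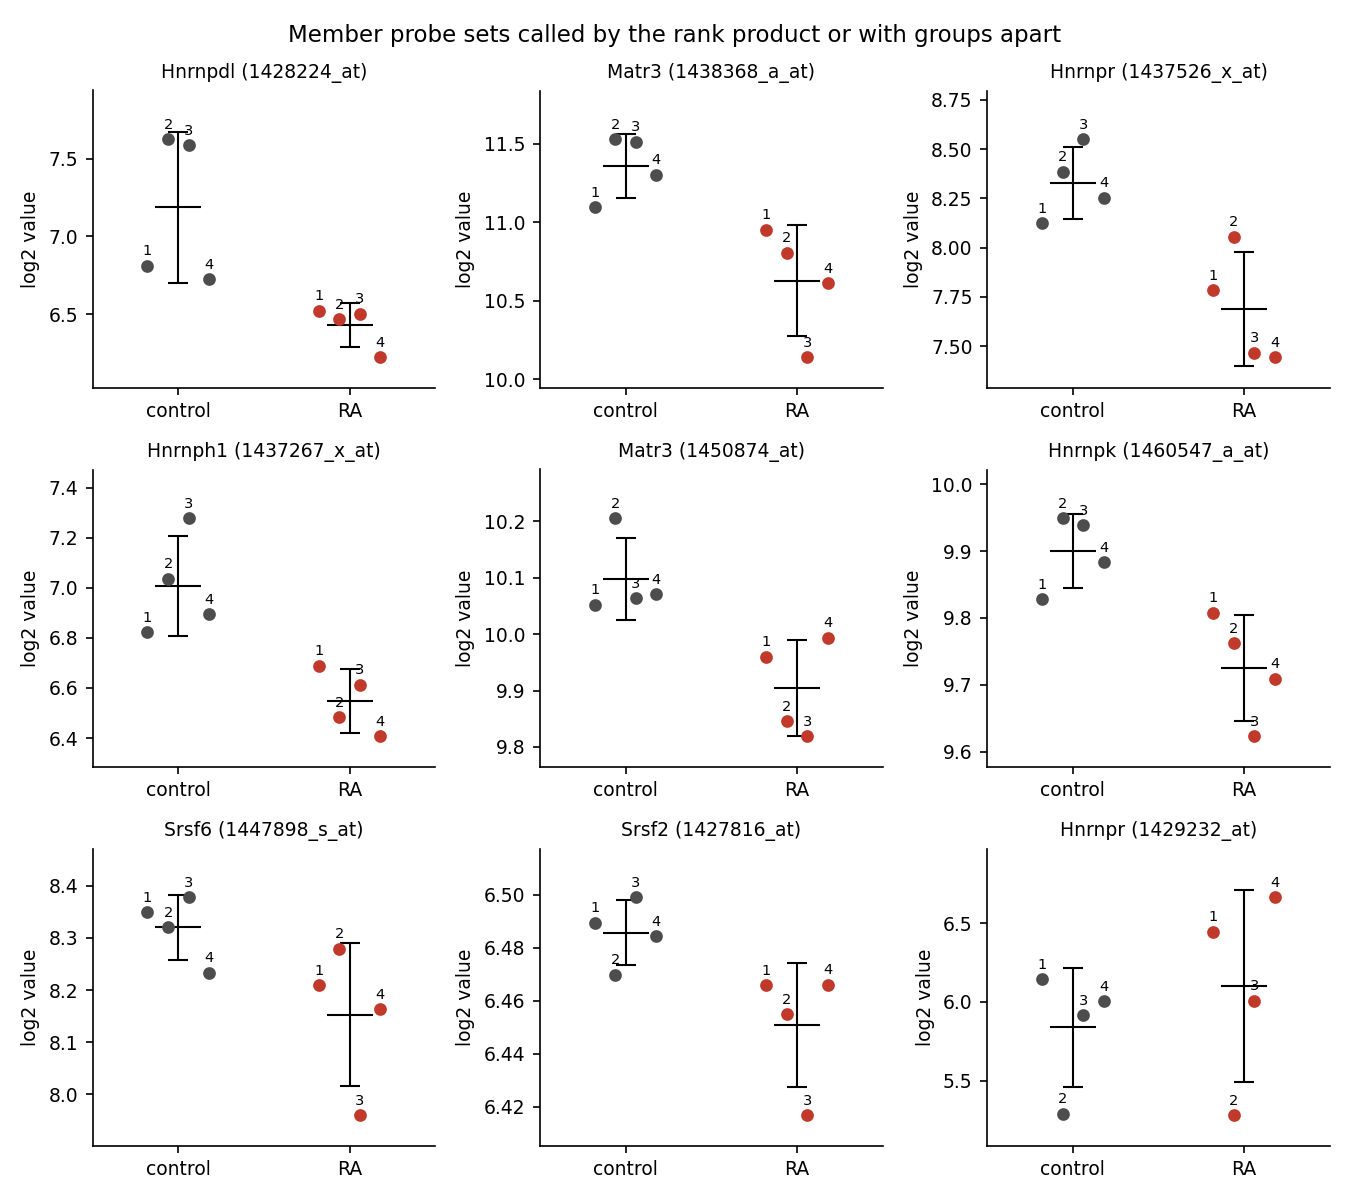
Log2 values (vertical axes, each on its own range) of 9 member probe sets on the 4 control arrays (grey) and the 4 RA arrays (red). Numbers are array numbers, and the bars give the group mean and SD. In 7 panels, Srsf2 among them, every RA value lies below every control value, while the groups overlap for Srsf6 and for the second probe set of Hnrnpr (1429232_at).

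Among the hnRNPs, Hnrnpdl gave the largest difference. It encodes an RNA-binding relative of hnRNP D, a protein that binds AU-rich stretches of mRNA. Its probe set 1428224_at had log2 values of 6.81, 7.62, 7.59 and 6.73 on control 1 to 4 and of 6.52, 6.47, 6.50 and 6.22 on RA 1 to 4. The RA arrays lay close together and below all control arrays, whereas the control arrays fell into a high pair, control 2 and 3, and a low pair. The log2 difference was -0.76 (SE 0.241), a level of 0.592 times that of the control group.

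The second varying probe set of Hnrnpdl, 1424252_at, had log2 values of 8.15, 7.89, 7.93 and 8.15 in the control arrays and of 7.98, 8.43, 7.91 and 8.07 in the RA arrays. The groups overlapped, with a log2 difference of 0.07 (SE 0.129), and control 2 and 3, the highest arrays of the first probe set, were the lowest control arrays of this one. The difference between the 2 probe sets on an array, in which any fixed offset of a probe set is the same on all arrays, was -1.42 to -0.27 on the control arrays and -1.96 to -1.41 on the RA arrays, so that the ranges met at their ends. The remaining 5 probe sets of the gene were unmeasured.

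Hnrnpr, which binds mRNA in the nucleus and in axons, had 2 varying probe sets that were called in opposite directions. The probe set 1437526_x_at had log2 values of 8.12, 8.38, 8.55 and 8.25 in the control arrays and of 7.79, 8.05, 7.47 and 7.44 in the RA arrays. Every RA value was below every control value, with RA 3 and RA 4 lowest, and the log2 difference was -0.64 (SE 0.164), or 0.642 times the control level. The letter x in its name marks a probe set with probes that can also match other transcripts.

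The other probe set, 1429232_at, had log2 values of 6.15, 5.29, 5.92 and 6.01 in the control arrays and of 6.45, 5.28, 6.01 and 6.66 in the RA arrays. It was called higher at a log2 difference of 0.26 with an SE of 0.344 and a limma adjusted p of 0.823, and the control values lay within the range of the RA values. Control 2 and RA 2 were its low arrays, and RA 4 and RA 1 its high ones. Without RA 1, RA 3 or RA 4, or without control 2, the higher call was lost. Higher calls over all probe sets fell from 416 to 19, 37, 40 and 231 in these runs, so the loss was not particular to this probe set. Its log2 difference ran from 0.07 to 0.53 when single arrays were left out. The difference between the 2 Hnrnpr probe sets was 1.98 to 3.10 in the control arrays and 0.78 to 2.77 in the RA arrays, with overlap.

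Hnrnph1 encodes a protein that binds runs of G near splice sites. Its probe set 1437267_x_at had log2 values of 6.82, 7.04, 7.28 and 6.89 in the control arrays and of 6.69, 6.48, 6.61 and 6.41 in the RA arrays. The groups did not overlap, and the log2 difference was -0.46 (SE 0.114), or 0.728 times the control level. The gene's other probe set was unmeasured, so the difference rests on a probe set of the x kind alone.

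Hnrnpk encodes a KH domain protein that binds C-rich RNA and DNA. Its probe set 1460547_a_at had log2 values of 9.83, 9.95, 9.94 and 9.88 in the control arrays and of 9.81, 9.76, 9.62 and 9.71 in the RA arrays. The groups did not overlap, but control 1 and RA 1 were close, and the log2 difference of -0.17 (SE 0.046) was a level of 0.886 times the control. The call was lost without control 2, control 3 or control 4 in turn, where lower calls over all probe sets fell from 253 to 129, 151 and 162. The gene's 3 further probe sets were unmeasured.

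Matr3 was the only member gene with 2 probe sets called lower. It encodes matrin 3, an RNA-binding protein of the nuclear matrix that acts on splicing and is mutated in a familial form of amyotrophic lateral sclerosis. The probe set 1438368_a_at had log2 values of 11.09, 11.53, 11.51 and 11.30 in the control arrays and of 10.95, 10.81, 10.14 and 10.61 in the RA arrays. The groups did not overlap, RA 3 was lowest, and the log2 difference was -0.73 (SE 0.195), or 0.603 times the control level.

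The probe set 1450874_at of Matr3 had log2 values of 10.05, 10.21, 10.06 and 10.07 in the control arrays and of 9.96, 9.85, 9.82 and 9.99 in the RA arrays. The groups did not overlap here either, with a log2 difference of -0.19 (SE 0.054), or 0.875 times the control level. The call of this probe set was lost without control 2 or without control 4, where lower calls over all probe sets fell from 253 to 129 and 162. The size differed between both probe sets. The first minus the second was 1.04 to 1.45 in the control arrays and 0.32 to 0.99 in the RA arrays, without overlap, so the first was lowered by more than the second. This is a description of values from the contrast that chose the gene.

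**Figure D2:**
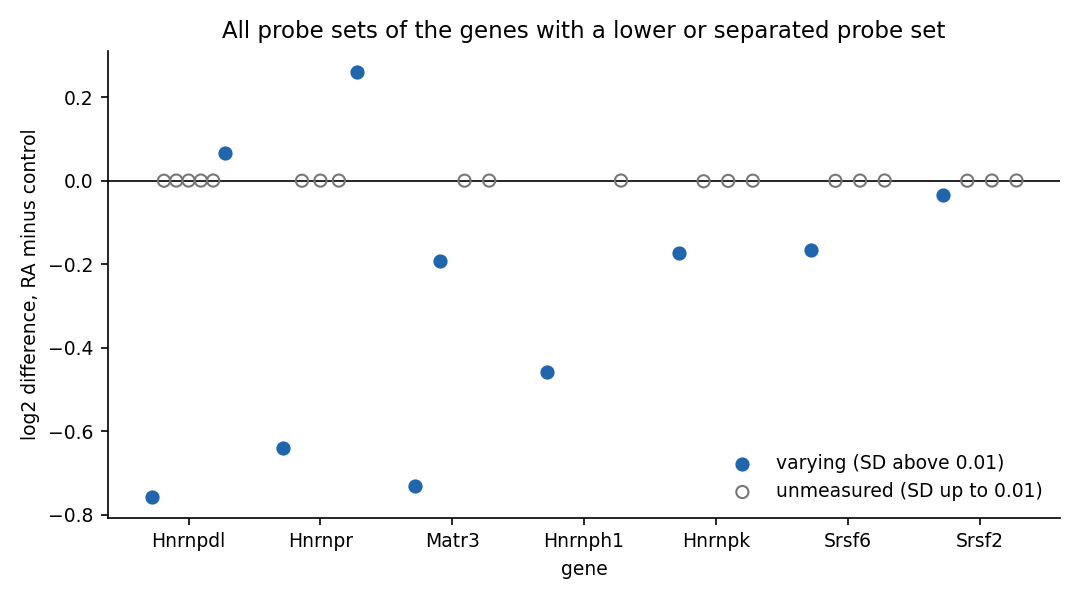
Log2 difference between the RA and the control mean (vertical axis) for every probe set of 7 genes (horizontal axis), filled where the probe set varied and open where it was unmeasured. Hnrnpdl and Hnrnpr each have a filled point on either side of 0, both filled points of Matr3 lie below 0, and the other 4 genes have 1 filled point each.

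Of the SR proteins, Srsf6 was called lower. It acts on exon choice in many transcripts, tau pre-mRNA among them. Its probe set 1447898_s_at had log2 values of 8.35, 8.32, 8.38 and 8.23 in the control arrays and of 8.21, 8.28, 7.96 and 8.16 in the RA arrays. RA 2 lay above control 4, so the groups overlapped, and RA 3 was lowest. The log2 difference was -0.17 (SE 0.072), or 0.891 times the control level. The call was lost without any 1 of the 4 control arrays or without RA 3, and the gene's other 3 probe sets were unmeasured. Lower calls over all probe sets were 274, 129, 151 and 162 without control 1 to 4 and 272 without RA 3, against 253.

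Srsf2, also known as SC35 and used as a marker of nuclear speckles, had 1 varying probe set, 1427816_at. Its log2 values were 6.489, 6.470, 6.499 and 6.484 in the control arrays and 6.466, 6.455, 6.417 and 6.466 in the RA arrays. The groups did not overlap, but they were parted by little, and the log2 difference was -0.03 (SE 0.013). The rank product did not call it.

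The other 5 varying probe sets were not called, and their groups overlapped. Hnrnpc, whose protein binds U-rich tracts of nascent RNA, had log2 values of 8.04, 8.01, 8.48 and 8.00 in the control arrays and of 8.00, 8.04, 8.48 and 7.95 in the RA arrays (1418693_at). Control 3 and RA 3 stood apart from the other 6 arrays by about the same amount, and the group means differed by -0.01 (SE 0.161). The log2 difference was 0.05 (SE 0.058) for Hnrnpu, the scaffold attachment factor that binds RNA and chromatin, and 0.07 (SE 0.149) for Srsf10, an SR protein that turns repressor when dephosphorylated. It was 0.13 (SE 0.086) for Raly, a relative of hnRNP C. Srsf5, an SR protein with 1 probe set, had a log2 difference of 0.18 (SE 0.127), with control 1 at 9.74 above all RA arrays and the other 3 control arrays at 9.19 to 9.33, below them. Without control 1 it was called higher, at a log2 difference of 0.30. In that run 971 of all probe sets were called higher, against 416 with all arrays.

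**Figure D3:**
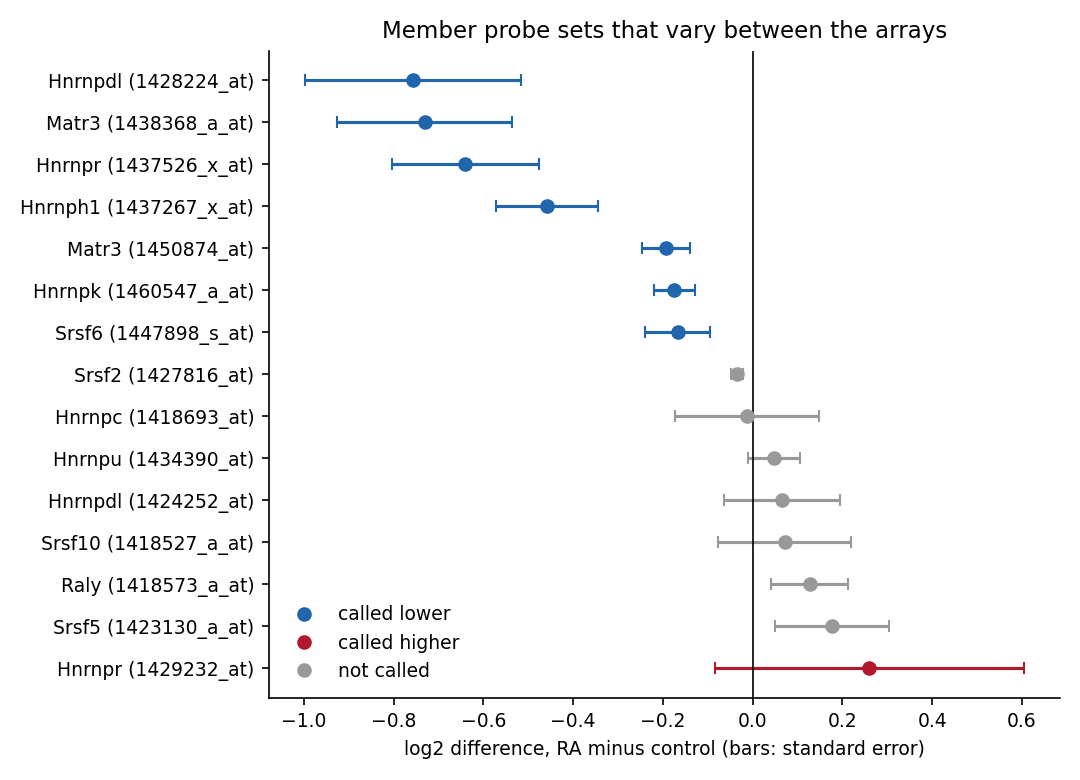
Log2 difference, RA minus control (horizontal axis), with its limma standard error, for the 15 varying member probe sets (vertical axis). Blue points were called lower by the rank product, the red point higher, and grey points were not called. The lower calls run from -0.76 to -0.17, and the higher call has the widest bar.

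Seen over all 15 varying probe sets, 9 had a lower mean in the RA group and 6 a higher one, with a median log2 difference of -0.03. Over all 3758 varying probe sets of the arrays the RA mean was the higher one in 73.1%, and the median was 0.07. Every RA value was below every control value in 7 of the 15, from 6 genes, against 2.87% of all varying probe sets, and the reverse held for 0 of 15 against 2.71%. The remaining 8 overlapped. The contrast chose the members, and nothing is read from these shares. Where a gene was represented only by its probe set with the highest mean, the 7 became 1, that of Matr3. For Hnrnpdl, Hnrnpr, Hnrnph1, Hnrnpk and Srsf2 the highest probe set was another one, and it was unmeasured. Only Matr3, Raly, Srsf5 and Srsf6 kept a varying probe set in this choice, so it says nothing of the other genes.

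The lower values were spread unevenly over the arrays. In the 7 probe sets called lower, RA 3 was the lowest array in 4 and RA 4 in 3, and control 2 was the highest in 4 and control 3 in 3. The mean distance of these probe sets from their own mean was 0.06, 0.34, 0.38 and 0.10 on control 1 to 4 and -0.10, -0.13, -0.36 and -0.30 on RA 1 to 4. Control 1 and RA 1 were thus the closest to the middle in their groups. The other 246 probe sets of the array called lower gave -0.05, 0.34, 0.32 and 0.10 on the control arrays and -0.08, -0.31, -0.12 and -0.20 on the RA arrays, so that control 2 and 3 were also high there but RA 2 was lowest.

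**Figure D4:**
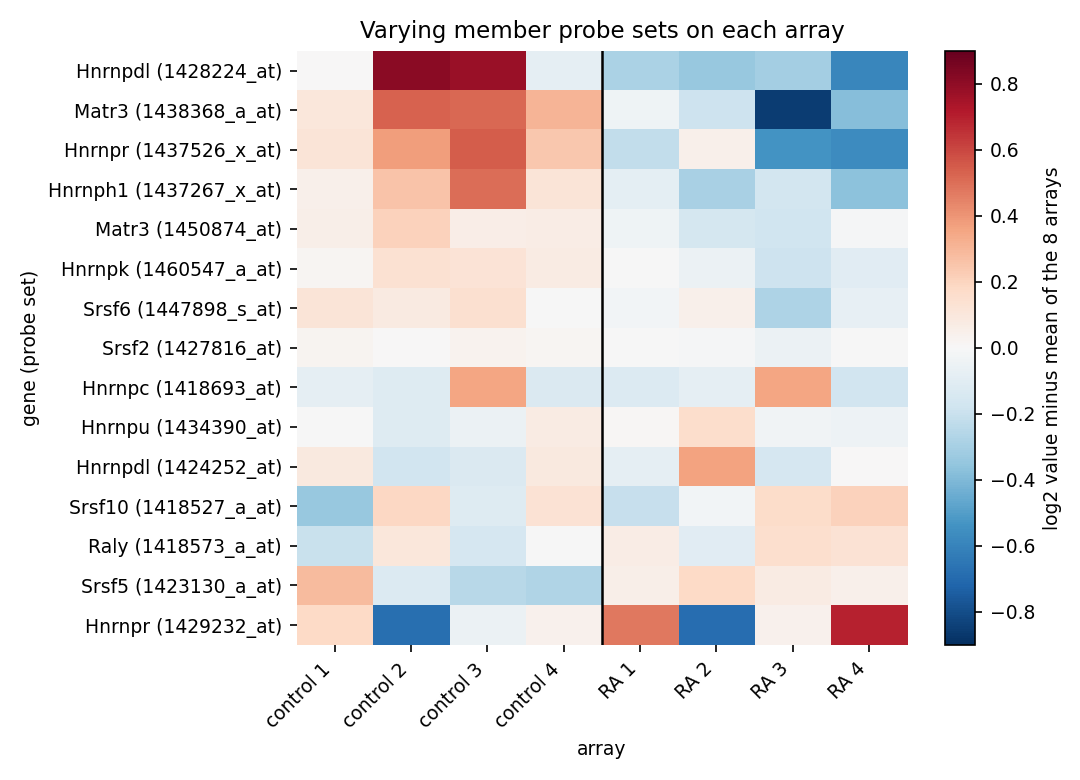
Log2 value minus the mean of the 8 arrays (colour) for the 15 varying member probe sets (rows) on each array (columns, control left of the line and RA right of it). Red is above the mean and blue below. The upper rows are red on control 2 and 3 and blue on RA 3 and RA 4, Hnrnpc is red on control 3 and RA 3, and the 2 rows of Hnrnpr differ in colour on most arrays.

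The kind of probe set differed among the calls. Of the member probe sets called lower, 2 of 64 were of the plain kind (_at), 2 of 25 of the kind that reads several transcripts of the same gene (_a_at), 1 of 16 of the kind that can read several genes (_s_at) and 2 of 11 of the kind with probes that can match unrelated transcripts (_x_at). Over all probe sets the shares called lower were 0.335%, 1.24%, 1.29% and 2.05% in this order. Whether other transcripts gave part of the signal of the Hnrnpr, Hnrnph1 and Srsf6 probe sets was not tested.

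Genes of the same pathway outside the members were taken from 4 lists with 119 genes, of which 114 had a probe set that named them alone. Of their 371 probe sets 39 varied. Called lower were 5 probe sets of 4 genes, or 1.35%, against 0.562% of all probe sets. Called higher were 2 of the 371 probe sets, from 2 genes, where 0.924% of all probe sets were called higher. The remaining 108 genes were not called, and nothing is read from these shares.

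Among the other hnRNP relatives, 1 of 28 measured genes was called lower, 1 higher and 26 not. The lower one was Ddx5, an RNA helicase that works with hnRNPs in splicing and transcription. Its probe set 1454793_x_at had log2 values of 8.71, 9.55, 9.70 and 8.87 in the control arrays and of 8.10, 8.17, 8.13 and 7.76 in the RA arrays, with no overlap and a log2 difference of -1.17 (SE 0.253). This was larger in size than in any member, and, as for Hnrnpdl, control 2 and 3 were the high arrays and RA 4 the lowest. The second probe set, 1438371_x_at, had control values of 9.63 to 10.29 and RA values of 9.21 to 9.58, and its difference was -0.61 (SE 0.181). Both Ddx5 probe sets are of the x kind, and whether other transcripts gave part of their signal was not tested. Msi2, a Musashi RNA-binding protein, was called higher at 0.16 (SE 0.044), with RA values of 7.11 to 7.30 above control values of 7.01 to 7.10.

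Of 26 other SR proteins and their kinases 1 was called lower and 25 not. It was Tra2a, an SR-like protein that activates exons, with control values of 7.61 to 7.91, RA values of 7.45 to 7.58 and a log2 difference of -0.25 (SE 0.070), and its groups did not overlap. Of 36 measured genes of the core spliceosome 1 was called lower and 35 not. It was Dhx15, a helicase that takes the spliceosome apart, at -0.28 (SE 0.114) with overlap, and RA 3 at 7.89 was its lowest array, as for Matr3, Hnrnpk and Srsf6. Of 24 neuronal splicing regulators Qk, the quaking protein, was called lower at -0.34 (SE 0.203), with overlap. Elavl4, a neuronal protein that stabilises mRNA, was called higher in probe set 1428741_at at 0.19 (SE 0.116), also with overlap. Its other varying probe sets, 1452894_at at 0.07 (SE 0.117) and 1450258_a_at at 0.17 (SE 0.153), were not called. The remaining 22 genes were not called.

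**Figure D5:**
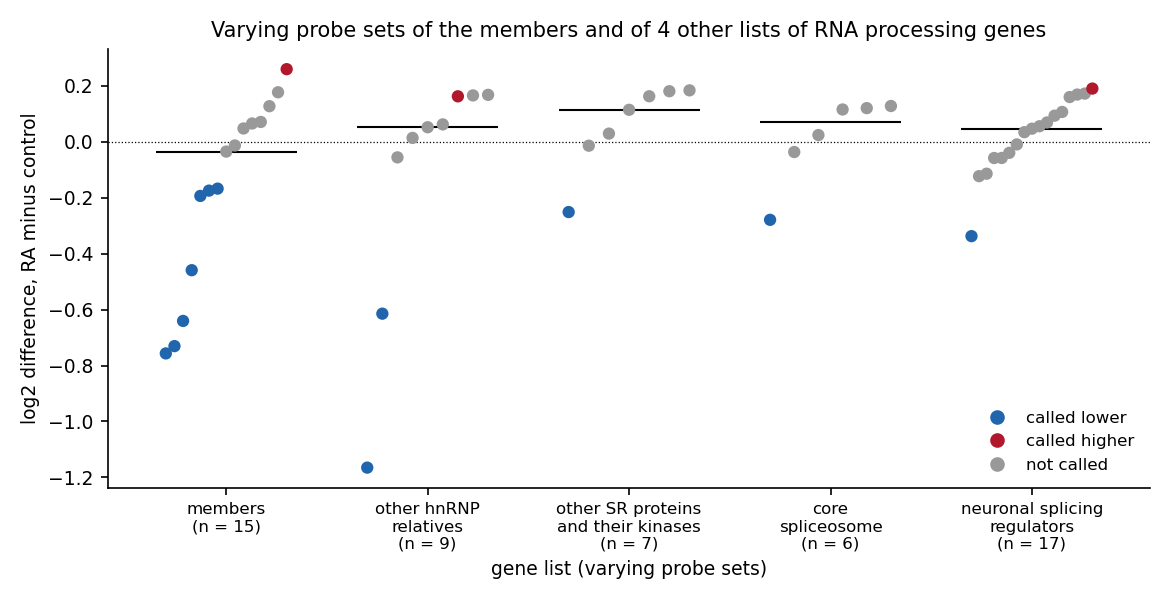
Log2 difference, RA minus control (vertical axis), of the varying probe sets of the members (15) and of the 4 other lists (9, 7, 6 and 17 probe sets). Black lines are medians, blue points were called lower by the rank product and red points higher. The member median lies at -0.03 and the other medians at 0.05, 0.11, 0.07 and 0.05. The lowest point of all is Ddx5.

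Levels of cell type markers also varied between arrays, and in a bulk sample fewer cells of a type and less RNA per cell cannot be told apart. The 6 neuronal markers had a mean log2 value of 10.7 to 10.8 on all arrays, but 1 of them, the synaptic protein gene Snap25, was called lower in 2 probe sets. The first (1416828_at) had log2 values of 11.67, 11.72, 11.70 and 11.62 in the control arrays and of 11.49, 11.37, 11.60 and 11.40 in the RA arrays, without overlap and with a log2 difference of -0.21 (SE 0.054). The second (1447763_at) overlapped, at -0.37 (SE 0.162). All 8 measured choroid plexus markers of 10 were called higher, with a mean log2 value of 6.89 to 8.71 on control 3, RA 1, RA 3 and RA 4 and of 5.78 to 5.89 on the other arrays. Markers of hippocampal pyramidal neurons (6 of 6 measured) had means of 7.88 to 8.36 in the control and 7.69 to 8.25 in the RA arrays, those of dentate granule cells (5 of 5) 6.80 to 7.59 and 6.80 to 7.48, and those of oligodendrocytes (5 of 6) 8.73 to 9.98 and 8.53 to 9.90. In these 3 lists control 2 and 3 were the highest control arrays and control 1 and RA 2 the lowest of their groups. Called lower were 1 pyramidal gene (Neurod6), 1 granule cell gene (Dsp) and 2 oligodendrocyte genes (Mobp and Mbp), all with overlap. The oligodendrocyte calls came from 2 of 16 varying probe sets of that list, whose median log2 difference was 0.0002. Other varying probe sets of Mobp and Mbp were not called. Astrocyte markers (6 of 6 measured) had means of 10.12 to 10.17 on control and 10.14 to 10.22 on RA arrays, microglial ones (6 of 6) 7.78 to 8.08 and 7.97 to 8.20, and endothelial ones (5 of 6) 7.17 to 7.31 and 7.24 to 7.51. Meningeal markers (6 of 6) had means of 6.72 to 7.03 and 6.76 to 7.48, blood markers (2 of 4) 5.73 to 6.06 and 5.73 to 5.96, and markers of thalamus and striatum (6 of 6) 6.61 to 7.22 and 6.86 to 7.30. In each list the ranges of these means overlapped between the groups. Called higher were 4 meningeal genes, 3 astrocyte genes, 3 genes of thalamus and striatum and 1 endothelial gene, with overlap except for Aqp4 of astrocytes and Flt1 of endothelium, and no microglial or blood gene was called. The part of any of these markers in the member values was not tested. Array values have no true zero, so no marker can be called absent.

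Of 19 control probe sets of the manufacturer for mouse transcripts, 7 varied. The 5′ probe set of Actb had log2 values of 11.8 to 12.1 in both groups and the 3′ probe set of 18S rRNA 10.76 to 11.86 in the control and 11.04 to 11.75 in the RA arrays. The control probe set named MUR_b2 lay at 7.72 to 7.90 on RA arrays and 7.92 to 8.04 on control arrays, a log2 difference of -0.19. The array medians were 5.829 to 5.831 on control arrays and 5.833 to 5.835 on RA arrays. With these medians subtracted, the median log2 difference of the varying members was -0.0385, against -0.0347 without. A shift of a whole array leaves the rank product as it is, so its calls could not change in that run. The part of the control probe sets in the member values was not tested.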

How the data were processed

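Hippocampal RNA of 4 control and 4 RA samples was hybridised to Affymetrix Mouse Genome 430 2.0 arrays. The authors summarised the scanner files with FARMS in R 2.10.1, and the deposited values are log2 summaries per probe set. How arrays were scaled against each other is not given in the sources used. The values were used without further scaling, after 64 control probe sets had been left out. Gene names come from the platform annotation. For 34741 probe sets the gene number was found in a GRCm38.p6 table, and the symbol was taken from there.

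The rank product of the Methods (2 unpaired groups, 100 permutations within arrays) was run on all 45037 probe sets with Python 3.11.15 and numpy 2.4.6. limma 3.58.1 in R 4.3.3 gave differences, standard errors and adjusted p-values. Both were run on simulated data in which every probe set had the same SD. Most deposited probe sets were nearly constant, so that run does not show how the tests behave on them. Array numbers limit the precision. The members and lists were chosen with earlier results of these data known.

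An item of the pathway lists is not reported here. Named with all values were member probe sets that were called, or varied without overlap of the groups, with the other varying probe sets of these genes, and up to 6 called genes of each pathway list. Marker lists were those of neurons, pyramidal and granule neurons, astrocytes, oligodendrocytes, microglia, choroid plexus, endothelium, meninges, blood, and thalamus with striatum. Alternatives were quantile normalization, subtraction of array medians, filters on low means and low SD, single arrays left out, the highest probe set of each gene, a replicate block, a threshold of 0.01, the rank sum, trend with robust moderation, array weights and the methods' t-test.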

Additional observations from a re-analysis of the deposited data

Results flagged for a closer look

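Among 30 groups of 4 arrays, 3 held an array far from the other 3 (gap to the nearest over the range, past Dixon's limit), which chance gives in about 1 of 20 groups. For Hnrnpc (1418693_at) these were control 3 at a log2 value of 8.479 (ratio 0.91) and RA 3 at 8.481 (ratio 0.832). For Matr3 (1450874_at) it was control 2 at 10.21 (ratio 0.878). Without control 2 this Matr3 probe set had the smallest of its log2 differences when single arrays were left out, at -0.16.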

How the results depend on the processing

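The 7 member probe sets called lower became 3 (of Hnrnpdl, Hnrnpr and Matr3) when only varying probe sets were tested. At a threshold of 0.01, where calls over all probe sets were not counted, they became 4. They became 4 to 7 when each array was left out in turn, with 4 without control 2 or control 4. Lower calls over all probe sets changed as well, from 253 in the main run to 17 when only varying ones were tested. With single arrays left out they were 129 to 314, with 129 without control 2 and 162 without control 4. Hnrnpdl, Matr3, Hnrnpr and Hnrnph1 kept a lower call in each of these leave-one-out runs. The rank sum called 7, with Srsf2 in place of Srsf6, and 134 of all probe sets, against 253 in the main run. The 1 higher call became 0 without the 25% of probe sets with the lowest means, among varying probe sets only and with the rank sum. It also became 0 at a threshold of 0.01, and 0 to 2 with each array left out. Higher calls over all probe sets were 416 in the main run and 130, 4 and 109 in the first 3 of these alternatives. With single arrays left out they were 19 to 971. limma called 54 member probe sets after quantile normalization and 107 after array medians were subtracted. Subtraction of medians moved the RA minus control difference of every probe set by the same small amount, and quantile normalization by amounts that varied. The median log2 difference over all probe sets became -0.0026 after quantile normalization and -0.0038 after the subtraction. Of all probe sets, 28543 and 41443 were called in these runs. With so many called, nothing is read from the member calls. In every other limma alternative run it called 0. The median log2 difference of the varying members was below 0 in each alternative (-0.167 to -0.0198, and -0.103 to -0.0303 with single arrays left out). The count of varying members with every RA value below every control value was 7 to 8 with single arrays left out. Leaving out an array cannot make separate groups overlap, so the count could not fall there and nothing is read from it. With 1 probe set per gene the count was 1, where only Matr3, Raly, Srsf5 and Srsf6 kept a varying probe set. Of the uncalled probe sets, Hnrnpc, Srsf10 and Hnrnpdl 1424252_at changed sign when single arrays were left out. No other direction turned.

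The array numbers shared by the groups were not treated as pairs. The deviations of arrays with the same number from their group means correlated at -0.122, -0.328, 0.448 and -0.393. These few values cannot settle whether the numbers pair the samples. A limma fit with the number as replicate block called 0 member probe sets, as did the fit without it.

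Signal over background was not in the files used. The 101 unmeasured probe sets give no difference to read, and 9 of the 12 genes with a varying probe set had only 1 of them.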
